A study of Mus musculus with 12 samples.

Results

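RAW264.7 cells, a mouse macrophage line kept as a permanent culture and derived from Balb/c mice, were given RANKL, the cytokine that turns such cells into bone-resorbing osteoclasts. One arm also received the supernatant of cultured Lactobacillus reuteri, a bacterium of the gut, and the other received MEM-alpha medium as vehicle. RNA was taken at day 1, day 3 and day 5, and each arm had 2 libraries at each day, so that 6 supernatant libraries could be set against 6 vehicle libraries. Every group, the vehicle arm included, carried RANKL and came from this 1 cell line. The question was which genes differ between the arms in the same direction at every day, and how the size of that difference changes over the days. Each supernatant library was paired with the vehicle library of the same day and replicate number, which gave 6 pairs. Of 14715 genes whose normalized counts averaged 10 or more in 1 or more of the 6 groups, 1370 had 1 direction in all 6 pairs. Differences are given throughout as supernatant minus vehicle on the scale of log2(normalized count + 8), where 1 unit is close to a 2-fold change for a well expressed gene and understates the fold of a gene with few counts.

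Macrophages read bacterial products through pattern recognition receptors such as the Toll-like receptors and CD14. The adaptors behind them switch on NF-kB, AP-1 and interferon regulatory factors, and these in turn drive chemokines, acute-phase proteins, prostaglandin and itaconate enzymes and, through secreted type I interferon, a set of antiviral genes. RANKL uses some of the same factors to switch on NFATc1, the master regulator of osteoclast genes, while factors such as IRF8 hold osteoclast formation back. A shortage of amino acids or oxidative stress raises a further programme under ATF4, which includes the cystine transporter gene Slc7a11.

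The libraries held between 8071160 and 16781080 reads on genes. Number 2 of days 3 and 5 stood apart in both arms: in these 4 libraries protein-coding genes of the nucleus took 38.1% to 48.8% of the reads, against 85.2% to 87.6% in the other 8, and mitochondrial genes took 25.7% to 30.6%, against 3.64% to 5.97%. They are called low-mRNA libraries below, and each pair holds 2 libraries of the same kind. Day 5 was split by number in another way. Acp5, the tartrate-resistant phosphatase of osteoclasts, stood at 21.1 in number 1 and 771.5 in number 2 of the supernatant arm at day 5, and at 35.9 in number 1 and 1230.6 in number 2 of the vehicle arm. Number 1 of day 5 thus had Acp5 near its level at day 1 in both arms, where it lay between 12.1 and 25.8. Same-numbered libraries of the 2 arms deviated together from their group means at days 3 and 5 (r = 0.935 and 0.923 over 14715 genes). At those days number 2 was low-mRNA in both arms. They hardly did so at day 1 (r = 0.120). The labels do not say whether the libraries of a group came from separate cultures, so p-values reflect only how far these libraries spread, and that spread may be technical. In bulk RNA, fewer cells of a type and less RNA per cell cannot be told apart.

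The macrophage label held against its markers. The summed normalized counts of 22 macrophage genes, led by Lyz2, lay between 106399.5 and 442179.6 in supernatant libraries and between 58202.2 and 453056.6 in vehicle libraries. Markers of other cell types summed to little: at most 18.8 in supernatant and 15.6 in vehicle libraries for 5 fibroblast genes, 42.1 and 29.6 for 5 T and natural killer cell genes, 11 and 15.5 for the epithelial gene Epcam, and 72.3 and 53.7 for 9 genes of dendritic cells and neutrophils. The 5 matched B cell genes, of which Blnk was the highest, reached 314.9 to 834.2 in supernatant and 379.2 to 1657.2 in vehicle libraries. None of these matched markers was at 0 in all 12 libraries. Matches were found for 5 of 10 fibroblast, 5 of 11 T and natural killer cell and 5 of 8 B cell markers. They were found for 1 of 8 epithelial markers and 9 of 12 of dendritic cells and neutrophils. Markers without a match could not be counted.

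With supernatant 17 of 34 interferon response genes and 8 of 28 amino acid stress genes were called higher by the limma model described below. So were 6 of 15 inflammatory cytokines and chemokines, and 0 genes of these lists were called lower. Over the 14715 genes tested 1.72% were called higher and 0.122% lower. Single genes with large shared differences were Acod1, Cxcl2 and Saa3, and a smaller set of genes, among them Mxd4 and St6gal1, was called lower. In all 6 pairs 1070 genes (7.27% of those tested) were higher and 300 (2.04%) were lower with supernatant. This balance turned without the 4 low-mRNA libraries, where 1455 genes were higher and 2825 lower in all 4 remaining pairs. A rule over 4 pairs is looser than one over 6, so the sizes of these counts cannot be compared. With 6 pairs, 1 direction in all of them gives a two-sided exact sign-flip p of 0.03125, the smallest a single gene can reach. Among 14715 genes many would reach it by chance, so the rule alone does not set a gene apart. Most of these genes differed little: the weakest of the 6 pair differences had a median size of 0.09 among the higher and 0.06 among the lower genes. In 77 genes every pair was higher by over 0.5, in 11 by over 1 and in 2 by over 2, whereas only 2 genes were lower by over 0.5 in every pair and 0 by over 1. Of the 1370, 945 higher and 230 lower genes were annotated as protein coding, and 8 and 4 had no symbol.

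A limma model with the pair as a block and 1 treatment term, adjusted by the Benjamini-Hochberg method, called 253 genes higher (1.72%) and 18 lower (0.122%) at an adjusted p of 0.05, and below "rose" and "fell" refer to these calls. The call uses the same 6 differences as the direction rule, so neither supports the other. Of the 253, 241 had 1 direction in all pairs and 12 in 5 of 6, and all 18 lower genes had 1 direction. Without the 4 low-mRNA libraries the counts were 264 and 141, of which 183 and 15 were called in both fits. After each pair was centred on its median over all genes, 951 genes (6.46%) were higher and 646 (4.39%) lower in all pairs, and 380 and 89 were called, so the higher share of calls was 81.0%, against 93.4% without centring. Leaving out 1 pair gave 116 to 254 genes higher, with 116 without the low-mRNA pair of day 5, and 4 to 55 lower. Every pair moved the lower count by over 1.5 times: it was 11 and 8 without numbers 1 and 2 of day 1, 5 and 55 without those of day 3, and 4 without either of day 5. Of the called genes 100 higher and 2 lower ones kept the call whichever pair was left out.

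The genes with the largest weakest pair included inflammatory effectors. Acod1, which makes itaconate in activated macrophages, stood at 1780.5 and 1744.4 normalized counts at day 1, 490.7 and 398.4 at day 3 and 766.2 and 958.7 at day 5 in supernatant cells, against 218.9 and 185.8, 36.7 and 17.6, and 115.0 and 29.7 in vehicle cells, with numbers 1 and 2 in that order. All supernatant libraries lay above all vehicle libraries. The pair differences ran from 2.65 to 4.68, with a shared difference of 3.49 (SE 0.22, limma adjusted p = 1.89e-05). Cxcl2, a chemokine that draws neutrophils, stood at 599.0 and 535.5, 104.9 and 182.7, and 661.6 and 562.9 in supernatant cells, against 78.0 and 19.7, 14.8 and 4.4, and 143.5 and 14.1 in vehicle cells. Each supernatant library was above its own vehicle library, although the lowest supernatant library, number 1 of day 3, was below the highest vehicle library. The shared difference of Cxcl2 was 3.36 (SE 0.30, adjusted p = 0.000205). Both calls held with each pair left out, without day 1, without day 5 and without the low-mRNA libraries.

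**Figure D1:**
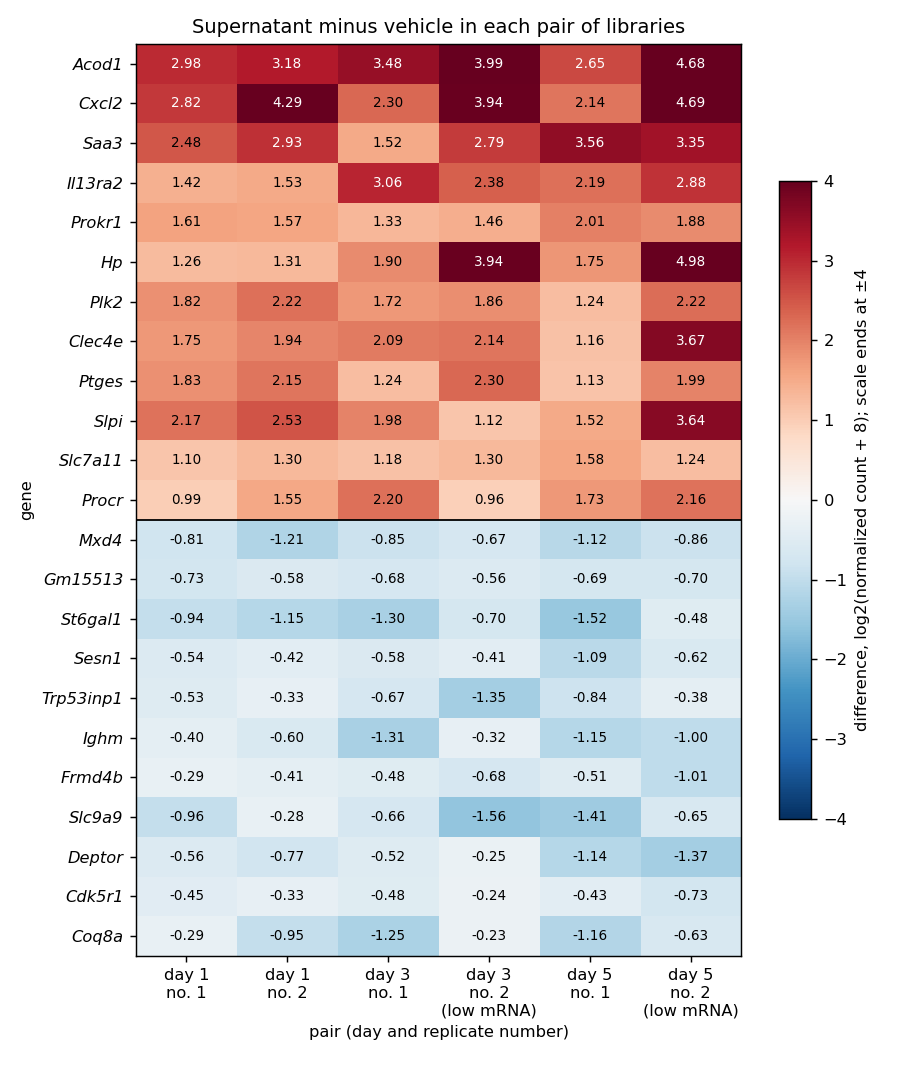
Supernatant minus vehicle on the scale of log2(normalized count + 8) for 12 higher (top) and 11 lower (bottom) genes with 1 direction, a group mean of at least 50 and the largest weakest pair, 1 column per pair of libraries and the value in each cell. Acod1 and Cxcl2 exceed 2 in every pair, while no lower gene exceeds 1 in size in every pair.

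The bases before the starts of both genes are shown because these are the 2 genes higher by over 2 in every pair. The sequences are RefSeq promoters of GRCm38.p6, read 5′ to 3′ on the gene's strand, at chr14:103046762-103047011 (plus strand) for Acod1 and chr5:90903649-90903898 (plus strand) for Cxcl2. Capitals mark matches to the kB letters, GGGA and CC with any 4 bases between them, on either strand, which begin 55 bases before the start in Acod1 and 97 and 96 bases before it in Cxcl2, where the 2 matches overlap on opposite strands.
Acod1: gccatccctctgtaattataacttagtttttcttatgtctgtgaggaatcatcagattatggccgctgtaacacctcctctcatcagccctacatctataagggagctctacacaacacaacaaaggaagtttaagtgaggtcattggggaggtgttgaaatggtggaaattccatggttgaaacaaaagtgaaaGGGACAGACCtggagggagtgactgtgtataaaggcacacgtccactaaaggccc
Cxcl2: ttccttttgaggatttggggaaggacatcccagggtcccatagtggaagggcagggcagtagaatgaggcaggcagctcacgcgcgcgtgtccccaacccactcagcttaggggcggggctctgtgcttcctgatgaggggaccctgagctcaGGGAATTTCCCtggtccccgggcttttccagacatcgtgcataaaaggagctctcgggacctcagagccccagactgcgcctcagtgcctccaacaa
The kB letters were found in 59 of the 180 genes that rose and have a promoter in the table (32.8%), against 29.6% of 9525 tested genes with a promoter, in windows from 250 bases before to 50 after a start. A match describes the letters only.

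Secreted acute-phase and protease genes behaved alike in direction and differed in how far they were expressed. Saa3, an acute-phase serum amyloid, stood at 74.8 and 73.6, 14.9 and 47.2, and 151.4 and 87.7 in supernatant cells, against 6.8 and 2.7, 0.0 and 0.0, and 5.5 and 1.4 in vehicle cells. Its vehicle libraries were at or near 0 throughout, and the shared difference was 2.77 (SE 0.23, adjusted p = 0.000122). Hp, the hemoglobin-binding haptoglobin, stood at 25.8 and 16.3, 21.9 and 115.0, and 71.6 and 244.1 with supernatant, against 6.1 and 1.8, 0.0 and 0.0, and 15.6 and 0.0 with vehicle. The highest Hp values were in the low-mRNA libraries of days 3 and 5, where the differences were 3.94 and 4.98, against 1.26 to 1.90 in the other 4 pairs. The shared difference of Hp was 2.52 (SE 0.42, adjusted p = 0.00955, and 0.00433 without the low-mRNA libraries), and the call was lost without day 5 (adjusted p = 0.101). Slpi, a secreted inhibitor of leukocyte proteases, rose by 2.16 (SE 0.26, adjusted p = 0.00113), with pair differences from 1.12 to 3.64.

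Among 15 tested inflammatory cytokines and chemokines 6 rose, 0 fell and 9 did not pass. Of all genes tested 1.72% rose and 0.122% fell. The median shared difference of the list was 0.67, against 0.07 over all genes tested. The 6 were Cxcl2, the chemokines Ccl3 and Ccl4, the interleukin 1 receptor antagonist Il1rn, Tnf and the cytokine Osm. The call of Osm was lost without the low-mRNA libraries (limma adjusted p = 0.113). Ccl4 rose by 1.42 (SE 0.16, adjusted p = 0.000974) with pair differences from 0.72 to 2.09, and Ccl3 by 1.25 (SE 0.17, adjusted p = 0.00273). Il1rn stood at 3581.7 and 3321.9 in supernatant cells at day 1, against 905.8 and 761.2 in vehicle cells, and its differences were 1.97 and 2.11 at day 1, 0.46 and 1.37 at day 3 and 1.03 and 1.17 at day 5. Tnf, named after its values were seen, rose by 1.02 (SE 0.17, adjusted p = 0.00807), with an adjusted p of 0.0544 without the low-mRNA pair of day 5.

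Of 16 tested enzymes of itaconate, prostaglandin and nitric oxide metabolism 5 rose, 0 fell and 11 did not pass (median 0.29, and 0.15 without the low-mRNA libraries). Of all genes tested 1.72% rose and 0.122% fell. The 5 enzyme genes were Acod1, the prostaglandin genes Ptges and Ptgs2, the arginine recycling enzyme Ass1 and Odc1, the first enzyme of polyamine synthesis. Ptges, a prostaglandin E synthase, stood at 209.7 and 207.0, 42.3 and 81.9, and 299.1 and 175.4 with supernatant, against 53 and 40.4, 13.3 and 10.3, and 132.5 and 38.1 with vehicle. It was higher in every pair, by 1.13 to 2.30, with a shared difference of 1.77 (SE 0.17, adjusted p = 0.000336). Ptgs2, the inducible cyclooxygenase, stood at 838.7 and 836.7, 122.9 and 6.3, and 281.7 and 42.7 with supernatant, against 367.3 and 268.4, 10.2 and 2.9, and 15.6 and 1.4 with vehicle. In vehicle cells it was near 0 in both low-mRNA libraries, and its difference of 0.39 in the low-mRNA pair of day 3 was the smallest of its 6. Ptgs2 rose by 2.01 (SE 0.33, adjusted p = 0.00816), with an adjusted p of 0.0639 without the low-mRNA pair of day 5. Odc1 rose by 0.85 (SE 0.09, adjusted p = 0.000785), with differences between 0.63 and 1.14.

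Receptors for microbial products included 5 genes that rose among 24 tested (0 fell, 19 did not pass, median 0.39). The shares over all genes tested were 1.72% higher and 0.122% lower. Without the low-mRNA libraries 4 of the 24 receptor genes rose and 1 fell, with a median of 0.14. Clec4e, the C-type lectin Mincle, stood at 8675.0 and 8784.3, 3101.3 and 1201.5, and 9447.2 and 3536.3 with supernatant, against 2574.3 and 2275.5, 722.8 and 266.0, and 4217.1 and 271.3 with vehicle. It was higher by 1.16 to 3.67, and its shared difference was 2.13 (SE 0.23, adjusted p = 0.000785). Fpr2, a formyl peptide receptor, rose by 1.85 (SE 0.27, adjusted p = 0.00347) and had 0 reads in 3 of 6 vehicle libraries. The lectin Clec4d, the scavenger receptor Msr1 and Cd14 also rose. Cd14 rose by 0.88 (SE 0.18, adjusted p = 0.0256), with differences of 0.19 and 0.32 at day 1 and 0.67 to 1.73 later, and its adjusted p was 0.0698 without the low-mRNA libraries. Of 25 NF-kB subunits and feedback genes 1 rose, the kinase gene Ikbke, by 1.5 (SE 0.21, adjusted p = 0.00289), 0 fell and 24 did not pass (median 0.24, and -0.05 without the low-mRNA libraries). With 1.72% of all genes called higher, 1 call among 25 does not set this list apart.

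**Figure D2:**
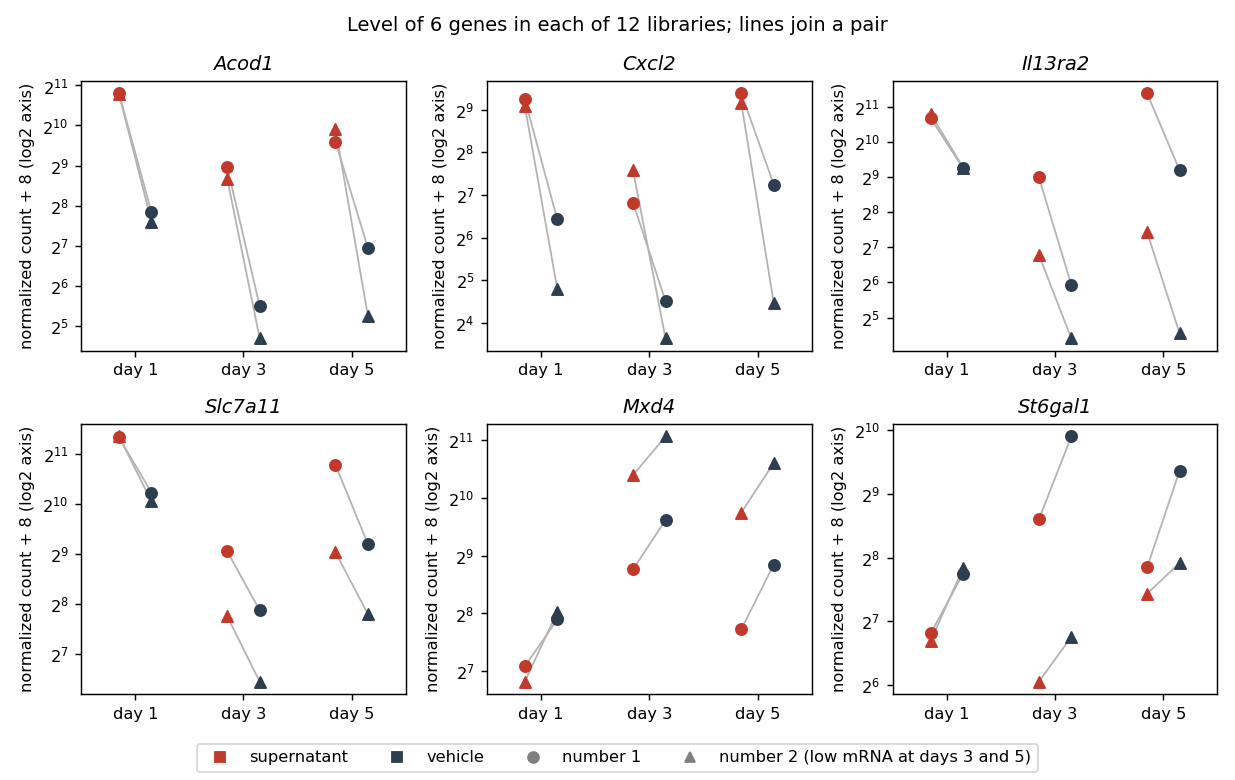
Normalized count + 8 on a log2 axis for 6 genes in each of 12 libraries, with supernatant left of vehicle at each day, circles for number 1 and triangles for number 2, and a line joining each pair. Acod1, Cxcl2, Il13ra2 and Slc7a11 are higher and Mxd4 and St6gal1 lower with supernatant in every pair, while levels differ between days and numbers.

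Interferon response genes gave the largest share of calls among the lists described. Of 34 tested members 17 rose, 0 fell and 17 did not pass, and 22 were higher in all 6 pairs. Of all genes tested 1.72% rose, 0.122% fell and 7.27% were higher in all 6 pairs. The median shared difference of the interferon list was 0.83. The median over the list was 0.88 and 0.91 in the pairs of day 1, 1.04 and 0.66 at day 3 and 0.95 and 0.24 at day 5, so it was lowest in the low-mRNA pairs. Without the low-mRNA libraries 29 of the 34 rose. Rsad2, which encodes the antiviral protein viperin, stood at 95.4 and 77.0, 26.6 and 9.4, and 82.6 and 8.3 with supernatant, against 19.7 and 20.6, 5.5 and 0.0, and 14.7 and 1.4 with vehicle. It rose by 1.46 (SE 0.17, adjusted p = 0.00113). Irf7, a transcription factor that amplifies interferon production, rose by 1.20 (SE 0.13, adjusted p = 0.000806), Oas3, a sensor of double-stranded RNA, by 0.89 (SE 0.10, adjusted p = 0.000879) and Bst2, the virus-tethering protein tetherin, by 0.91 (SE 0.11, adjusted p = 0.00118). Their pair differences lay between 0.62 and 1.61, and all 3 calls held with each pair left out.

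Isg15, a ubiquitin-like interferon product named after its values were seen, is shown with the bases before its start, because the motif read by interferon-activated factors was more frequent here than over all tested genes. Isg15 stood at 126.3 and 94.1, 61.0 and 23.6, and 256.0 and 22.5 with supernatant, against 60.6 and 42.2, 10.9 and 0.0, and 91.1 and 9.9 with vehicle. It was higher in each pair, by 0.77 to 1.98, and rose by 1.34 (SE 0.18, adjusted p = 0.00219). The sequence lies at chr4:156200819-156201068 (minus strand, GRCm38.p6, RefSeq), and capitals mark 3 overlapping matches to GAAA, any 2 bases and GAAA, which begin 78, 72 and 66 bases before the start.
Isg15: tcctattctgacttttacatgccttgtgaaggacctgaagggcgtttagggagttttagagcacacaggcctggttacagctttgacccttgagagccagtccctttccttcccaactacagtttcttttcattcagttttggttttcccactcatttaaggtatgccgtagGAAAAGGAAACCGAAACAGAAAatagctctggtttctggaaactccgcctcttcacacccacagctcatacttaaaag
These letters were found on either strand in 8 of the 12 interferon genes that rose and have a promoter, in 26 of 180 genes that rose (14.4%) and in 3.87% of 9525 tested genes. The AP-1 letters TGANTCA were found in 27 of the 180 (15%), against 6.12% of tested genes, and the E-box CACGTG in 19 (10.6%), against 11.9%. Matches of 2 different motifs overlapped in 2 of 225 windows of the genes that rose. The shares were not tested. The interferon list was chosen as genes that respond to interferon, so its share is a description only.

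Genes of class I antigen presentation, which interferon also drives, gave 1 call among 20 tested: H2-T23, a nonclassical class I gene, rose by 0.48 (SE 0.11, adjusted p = 0.0404), a call lost with any pair left out (adjusted p up to 0.162). All 20 shared differences were above 0, with a median of 0.36 (0.19 without the low-mRNA libraries) and 8 members higher in all pairs. Over all genes tested 9642 of 14715 were above 0, 1.72% rose and 7.27% were higher in all pairs. Class I genes resemble each other closely, and reads shared between them make the single values uncertain.

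**Figure D3:**
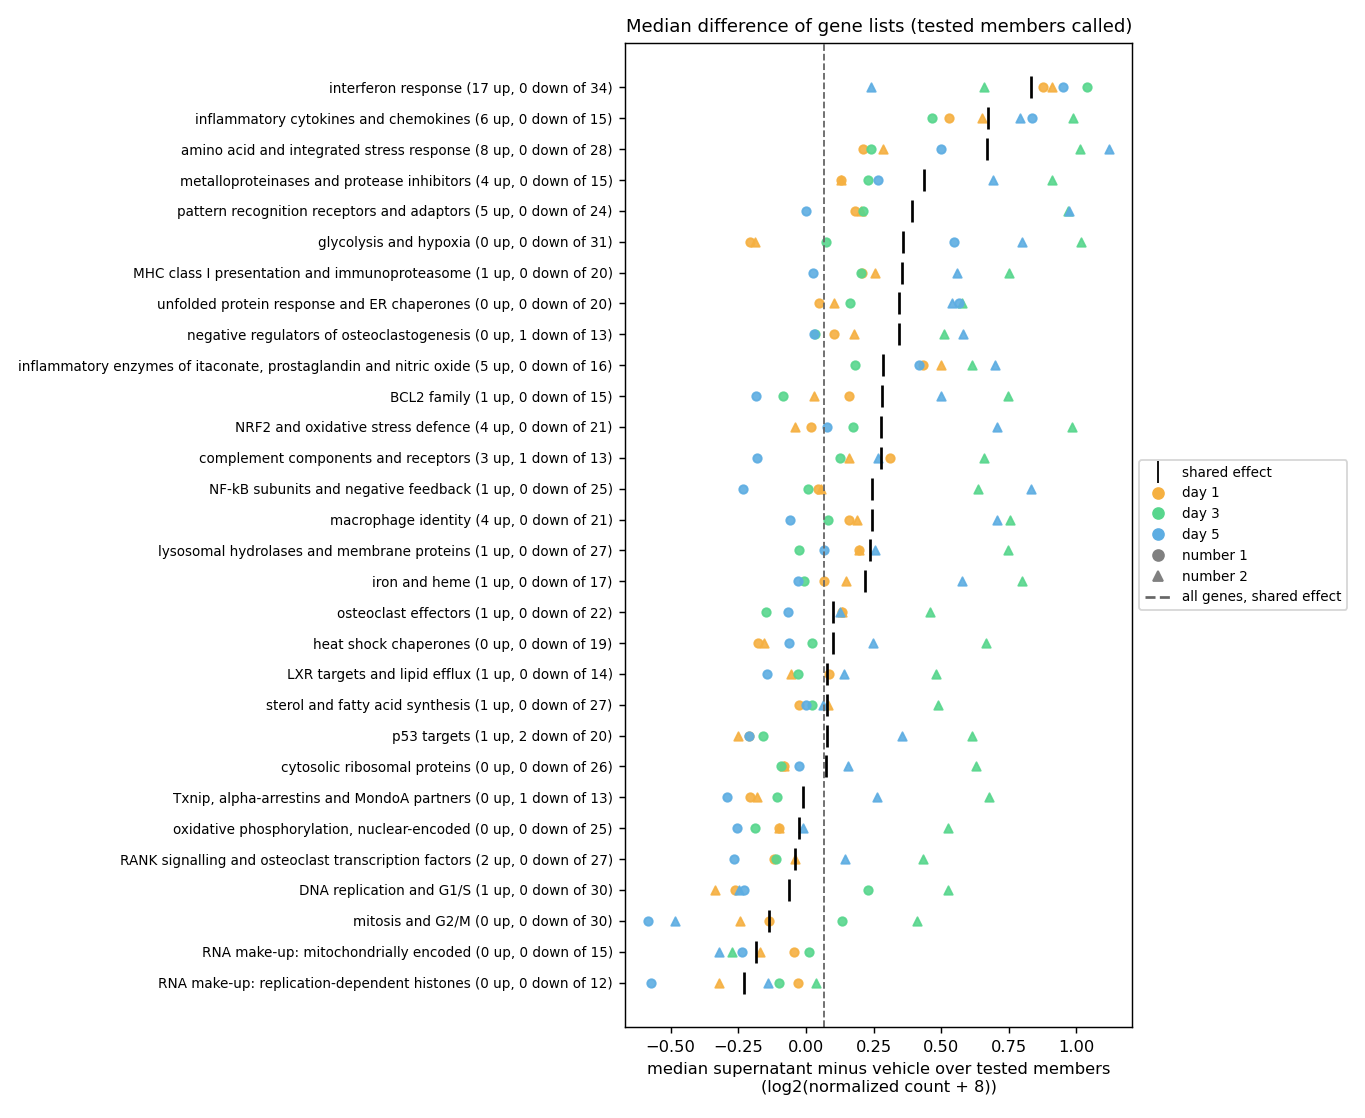
Median supernatant minus vehicle over the tested members of each gene list with at least 5, with circles and triangles for the pairs of numbers 1 and 2, colours for days, a black bar for the shared difference and a dashed line at 0.07, the median of all genes tested. Interferon response, cytokine and amino acid stress genes lie farthest right, and the low-mRNA pairs of days 3 and 5 lie right of number 1 in most lists but left of it in the interferon list.

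All 28 tested amino acid and integrated stress response genes had a shared difference above 0, and 19 were higher in all 6 pairs. Of the 28, 8 rose, 0 fell and 20 did not pass, with a median of 0.67. Among all genes tested 9642 of 14715 were above 0, 7.27% were higher in all pairs, 1.72% rose and 0.122% fell. The list was not tested as a set. After centring 14 of the list rose, with a median of 0.60, and without the low-mRNA libraries 9 rose, with a median of 0.34. The transporter gene Slc7a11, which brings in cystine for glutathione, had the narrowest range of differences among the 12 genes named for the largest weakest pair. It stood at 2569.4 and 2604.1, 523.5 and 207.9, and 1754.4 and 516.7 with supernatant, against 1192.1 and 1053.8, 226.6 and 79.4, and 579.7 and 214.8 with vehicle. Levels fell into high and low libraries by day and number, yet each pair differed by 1.10 to 1.58, and the shared difference was 1.28 (SE 0.10, adjusted p = 6.8e-05). Its partner chain Slc3a2 rose by 0.68 (SE 0.11, adjusted p = 0.00928). Trib3, a pseudokinase induced under this stress, rose by 1.22 (SE 0.19, adjusted p = 0.00576), the transcription factor gene Atf3 by 0.83 (SE 0.12, adjusted p = 0.005), and Atf4, Cebpb, Ddit3 and the mitochondrial folate enzyme Mthfd2 also rose. The call of Ddit3 was lost without the low-mRNA libraries (limma adjusted p = 0.0993).

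Slc7a11 is shown with the bases before its start for the letters TGATGNAA, which the ATF4 and C/EBP factors read. The sequence lies at chr3:50443614-50443863 (minus strand, GRCm38.p6, RefSeq), and capitals mark 2 matches, 1 on each strand, which begin 66 and 47 bases before the start.
Slc7a11: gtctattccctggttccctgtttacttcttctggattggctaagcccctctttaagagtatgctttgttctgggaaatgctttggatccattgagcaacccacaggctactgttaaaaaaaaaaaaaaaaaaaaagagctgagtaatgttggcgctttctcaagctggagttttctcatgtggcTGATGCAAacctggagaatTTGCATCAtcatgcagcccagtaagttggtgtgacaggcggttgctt
The letters were found in 3 of the 8 stress genes that rose, in 14 of 180 genes that rose (7.78%) and in 2.85% of 9525 tested genes. These shares were not tested either.

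Neighbouring stress programmes held fewer calls, and over all genes tested 1.72% rose and 0.122% fell. Of 21 NRF2 and oxidative defence genes 4 rose and 0 fell: Slc7a11, the peroxiredoxin gene Prdx1, the ferritin heavy chain gene Fth1 and the autophagy receptor gene Sqstm1 (median 0.28, and 0.04 without the low-mRNA libraries). The call of Sqstm1 was lost without those libraries (limma adjusted p = 0.063). Fth1 stood at 53176.3 and 55927.5, 25409.4 and 14620.9, and 76525.8 and 56585.2 with supernatant, against 33865.8 and 31384.6, 16172.1 and 4628.5, and 43842.5 and 27507.5 with vehicle. It rose by 0.94 (SE 0.13, adjusted p = 0.00298). Of 20 unfolded protein response genes 0 passed (median 0.34), although 11 were higher in all 6 pairs, against 7.27% of all genes tested. Hspa5, the main chaperone of the endoplasmic reticulum, had differences from 0.14 to 0.89 (shared 0.46, SE 0.12, adjusted p = 0.0769).

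Proteases, their inhibitors and complement genes rose in part, beside 1.72% of all genes tested that rose and 0.122% that fell. Of 15 metalloproteinases and protease inhibitors 4 rose and 0 fell (Mmp12, Mmp14, the urokinase gene Plau and Slpi, median 0.44, and 0.17 without the low-mRNA libraries). The call of Mmp14 was lost without those libraries (limma adjusted p = 0.0562). Mmp12, the macrophage elastase, stood at 861.9 and 886.3, 568.1 and 69.3, and 5875.2 and 1210.0 with supernatant, against 488.5 and 392.3, 91.4 and 23.5, and 2591.2 and 98.9 with vehicle. It was higher in every pair, by 0.81 to 3.51, and rose by 1.75 (SE 0.29, adjusted p = 0.00851). Of 13 complement genes 3 rose and 1 fell, and without the low-mRNA libraries 2 rose and 2 fell. The alternative pathway gene Cfb rose by 1.28 (SE 0.19, adjusted p = 0.00409), C3 by 1.59 (SE 0.30, adjusted p = 0.0187) and the receptor gene C5ar1 by 0.84 (SE 0.16, adjusted p = 0.0196). The differences of C3 were 0.94 and 0.89 at day 1, 1.88 and 2.83 at day 3 and 0.16 and 2.84 at day 5, and its call was lost without the low-mRNA libraries (adjusted p = 0.0846).

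The remaining higher genes named by the weakest pair were receptors and a kinase. Il13ra2, a decoy receptor for interleukin 13, stood at 1630.2 and 1780.3, 502.4 and 102.4, and 2672.9 and 164.7 with supernatant, against 602.1 and 611.3, 53.1 and 13.2, and 578.8 and 15.5 with vehicle. It was higher in each pair, by 1.42 to 3.06, and rose by 2.24 (SE 0.20, adjusted p = 0.000205). Plk2, a polo-like kinase, stood at 5384.6 and 5323.8, 744.2 and 185.8, and 2346.2 and 457.4 with supernatant, against 1514.7 and 1140.0, 219.6 and 45.6, and 989.2 and 91.8 with vehicle, and rose by 1.85 (SE 0.13, adjusted p = 3.69e-05). Prokr1, a prokineticin receptor, was at 21.9 to 72.5 with supernatant and 2.9 to 16.7 with vehicle, without overlap, and rose by 1.64 (SE 0.14, adjusted p = 0.000169). Procr, the endothelial protein C receptor, rose by 1.60 (SE 0.18, adjusted p = 0.000889), and its adjusted p was 0.0514 without day 5.

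Spp1, which encodes the secreted matrix protein osteopontin and was named after its values were seen, reached the highest count of the genes described, in number 1 of day 5 with supernatant, although Fth1 was above it in 5 of 12 libraries. It stood at 166391.6 and 166441.1, 37328.0 and 13969.0, and 298078.9 and 31065.7 with supernatant, against 94676.5 and 76839.9, 11679.2 and 3098.4, and 100880.3 and 10356.5 with vehicle. It was higher in every pair, by 0.81 to 2.17, and rose by 1.49 (SE 0.15, adjusted p = 0.000526), with each pair left out as well.

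Lower genes were fewer, and their differences were smaller. Mxd4, a MAX partner that represses MYC targets, stood at 128.0 and 105.2, 425.7 and 1333.8, and 203.7 and 847.3 with supernatant, against 230.2 and 253.1, 775.9 and 2119.5, and 451.8 and 1542.9 with vehicle. Each supernatant library was below its own vehicle library, by 0.67 to 1.21, and Mxd4 fell by 0.92 (SE 0.10, adjusted p = 0.000892). St6gal1, a sialyltransferase, stood at 104.0 and 95.0, 379.5 and 58.3, and 222.1 and 164.7 with supernatant, against 206.8 and 220.8, 947.8 and 99.9, and 649.6 and 233.1 with vehicle, and fell by 1.02 (SE 0.14, adjusted p = 0.00298). These were the 2 lower genes whose call held with every pair left out.

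Other lower genes named by the weakest pair were Sesn1 and Deptor, which encode inhibitors of the growth kinase complex mTORC1, the p53 target Trp53inp1, the immunoglobulin heavy chain gene Ighm, the endosomal sodium-proton exchanger gene Slc9a9, the coenzyme Q biosynthesis gene Coq8a, the scaffold gene Frmd4b, Gm15513 and Cdk5r1. Sesn1 fell by 0.61 (SE 0.11, adjusted p = 0.018) and Deptor by 0.77 (SE 0.15, adjusted p = 0.0185). Ighm stood at 85.9 and 62.5, 40.7 and 31.5, and 375.3 and 72.3 with supernatant, against 115.9 and 98.7, 112.5 and 41.2, and 841.0 and 152.6 with vehicle. It fell by 0.79 (adjusted p = 0.0207) and is itself 1 of the B cell markers whose sums are given above. Cdk5r1, an activator of the kinase CDK5, did not pass (shared difference -0.44, adjusted p = 0.116). For the others the highest adjusted p with a single pair left out was 0.0657 to 0.115. Further genes that fell, listed here after their values were seen, were Cytip (-0.83), Zfyve28 (-0.82), Cd101 (-0.76), 2310040G24Rik (-0.71), BC106179 (-0.67) and the interleukin 6 receptor gene Il6ra (-0.45).

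Few osteoclast genes were called for a difference shared by the days. Over all genes tested 1.72% rose and 0.122% fell. Of 22 osteoclast effector genes 1 rose, 0 fell and 21 did not pass, with a median of 0.10 (0.03 without the low-mRNA libraries). The 1 was Car2, the carbonic anhydrase that supplies protons for resorption, at 353.2 and 333.6, 180.8 and 67.7, and 131.2 and 149.3 with supernatant, against 187.8 and 168.8, 153.1 and 41.2, and 43.2 and 89.0 with vehicle. It rose by 0.80 (SE 0.15, adjusted p = 0.0169), and the call was lost without the low-mRNA libraries (adjusted p = 0.0539). Acp5 had pair differences of 0.75 and 0.16 at day 1, -0.52 and 0.27 at day 3 and -0.59 and -0.67 at day 5 (shared -0.10, SE 0.18, adjusted p = 0.853). As given above, Acp5 was low in both arms at day 1 and in number 1 of day 5, where few counts understate a difference. A difference present only where such a gene is well expressed would not be shared by all pairs. Ctsk, the collagen-degrading cathepsin K, had 0.87 and 0.72, -0.16 and 1.27, and -0.09 and 0.10 (shared 0.45, SE 0.17, adjusted p = 0.28). For Mmp9 and the fusion genes Dcstamp and Ocstamp the shared differences were 0.44 (adjusted p = 0.274), 0.06 (0.863) and -0.73 (0.26). The direction of each of these 5 genes differed between pairs, and a p above the threshold does not show that the arms were alike.

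Of 27 genes of RANK signalling and osteoclast transcription 2 rose, 0 fell and 25 did not pass (median -0.04, and -0.14 without the low-mRNA libraries). The shares over all genes tested were 1.72% higher and 0.122% lower. Calcrl, a receptor of the calcitonin family, rose by 0.91 (SE 0.12, adjusted p = 0.00231) and Jun, a subunit of AP-1, by 0.42 (SE 0.09, adjusted p = 0.0333). The call of Jun held in only 1 of the 6 fits with a pair left out (limma adjusted p up to 0.143). It was kept without the low-mRNA libraries (adjusted p = 0.0199). Nfatc1 had a shared difference of -0.22 (SE 0.12, adjusted p = 0.49) and the RANK gene Tnfrsf11a one of -0.28 (SE 0.11, adjusted p = 0.306). Among 13 negative regulators of osteoclast formation 0 rose and 1 fell (median 0.34), and without the low-mRNA libraries 0 rose and 0 fell (median 0.12). Irf8 had a shared difference of 0.34 (SE 0.11, adjusted p = 0.158).

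The genes that rose were called against the spread of the same 6 differences, which selects against genes whose difference varied by day, so their sizes by day are a description. Their median difference was 0.74 at day 1, 0.89 at day 3 and 0.91 at day 5, against -0.04, 0.19 and 0.06 over all genes tested. By pair it was 0.70 and 0.77 at day 1, 0.70 and 1.03 at day 3 and 0.73 and 1.08 at day 5, so the 3 number 1 pairs lay between 0.70 and 0.73 and the 2 low-mRNA pairs above 1. All genes together were shifted in the same low-mRNA pairs, with medians of 0.39 at day 3 and 0.20 at day 5, against -0.09 to -0.01 in the other 4. In those 2 pairs the share of reads on nuclear protein-coding genes was 47.1% with supernatant and 38.1% with vehicle at day 3, and 48.8% and 41% at day 5. The part of that difference in the larger values was not tested. In the genes that fell the median was -0.64 at day 1, -0.68 at day 3 and -0.81 at day 5.

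**Figure D4:**
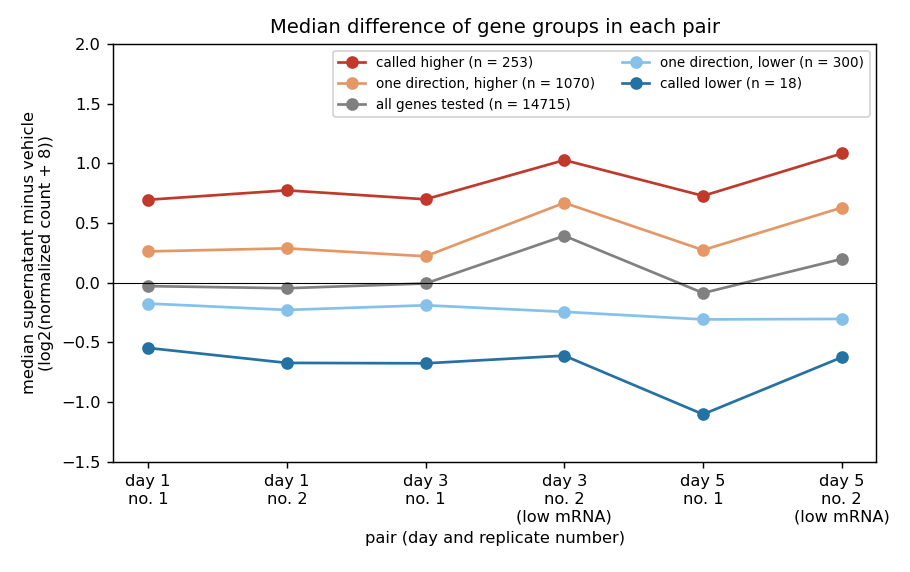
Median supernatant minus vehicle on the scale of log2(normalized count + 8) in each of 6 pairs for the genes called higher, the genes with 1 direction higher, all genes tested, the genes with 1 direction lower and the genes called lower. The lines of the higher genes and of all genes tested are raised together in the 2 low-mRNA pairs, to 0.39 and 0.20 for all genes.

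Over the wider set of 1070 genes higher in all pairs the median was 0.27 at day 1, 0.47 at day 3 and 0.46 at day 5. By pair it was 0.262, 0.222 and 0.274 in number 1 of days 1, 3 and 5, against 0.288, 0.669 and 0.629 in number 2, so the later days were higher in the low-mRNA pairs and not in number 1 of day 3. The medians were 0.27, 0.34 and 0.42 among the 951 higher in all pairs after centring. Among the 300 lower genes it was -0.21, -0.23 and -0.31. The largest of the 3 day differences fell on day 1 in 151 of the 1070, on day 3 in 452 and on day 5 in 467, against 3025, 6863 and 4827 of all genes tested. Over the number 1 pairs alone it fell on day 1 in 340 of the 1070, on day 3 in 282 and on day 5 in 448, against 4338, 3560 and 6817 of all genes tested. Among the genes that rose the counts were 65, 92 and 96. Across 14715 genes the differences of the 2 pairs of day 1 correlated at r = 0.59, those of day 3 at 0.16 and those of day 5 at 0.25. Other pairs gave 0.08 to 0.37. Each pair has its own libraries, and the 2 libraries of a pair are of the same kind (low-mRNA or not).

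No gene passed the F test of whether the supernatant difference changed from day to day (limma, 3 residual degrees of freedom, smallest adjusted p = 0.117), and 470 genes (3.19%) had an unadjusted p under 0.05. Among the genes that rose 21 (8.30%) and among those that fell 2 (11.1%) had such a p. The test uses differences within a day, so it can detect only changes that both pairs of a day show. The genes named for the smallest day p are therefore given as values, with the unadjusted p of limma's F test in brackets; adjusted over all genes it was 0.932 for Mmp14. Mmp14, a membrane-bound metalloproteinase, had differences of 1.96 and 2.00 at day 1, 1.37 and 0.66 at day 3 and 0.23 and 0.69 at day 5 (0.00608), and Fabp4, a fatty acid binding protein, had 1.39 and 1.86, 0.68 and 0.67, and 0.15 and 0.14 (0.00496). Both were largest at day 1. Ccnd2, the G1 cyclin D2, went the other way with 0.02 and 0.11, 1.23 and 1.68, and 1.25 and 1.69 (0.00217), as did Slc6a9, a glycine transporter, with 0.09 and 0.19, 0.56 and 0.22, and 1.45 and 1.43 (0.00458). Maf, a large MAF factor of macrophages, had -0.13 and -0.15 at day 1, -1.07 and -2.89 at day 3 and -1.78 and -2.15 at day 5 (0.00756, shared adjusted p = 0.053). At day 1 its libraries held 0.0 and 0.9 with supernatant and 0.8 and 1.8 with vehicle, too few to show a difference.

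**Figure D5:**
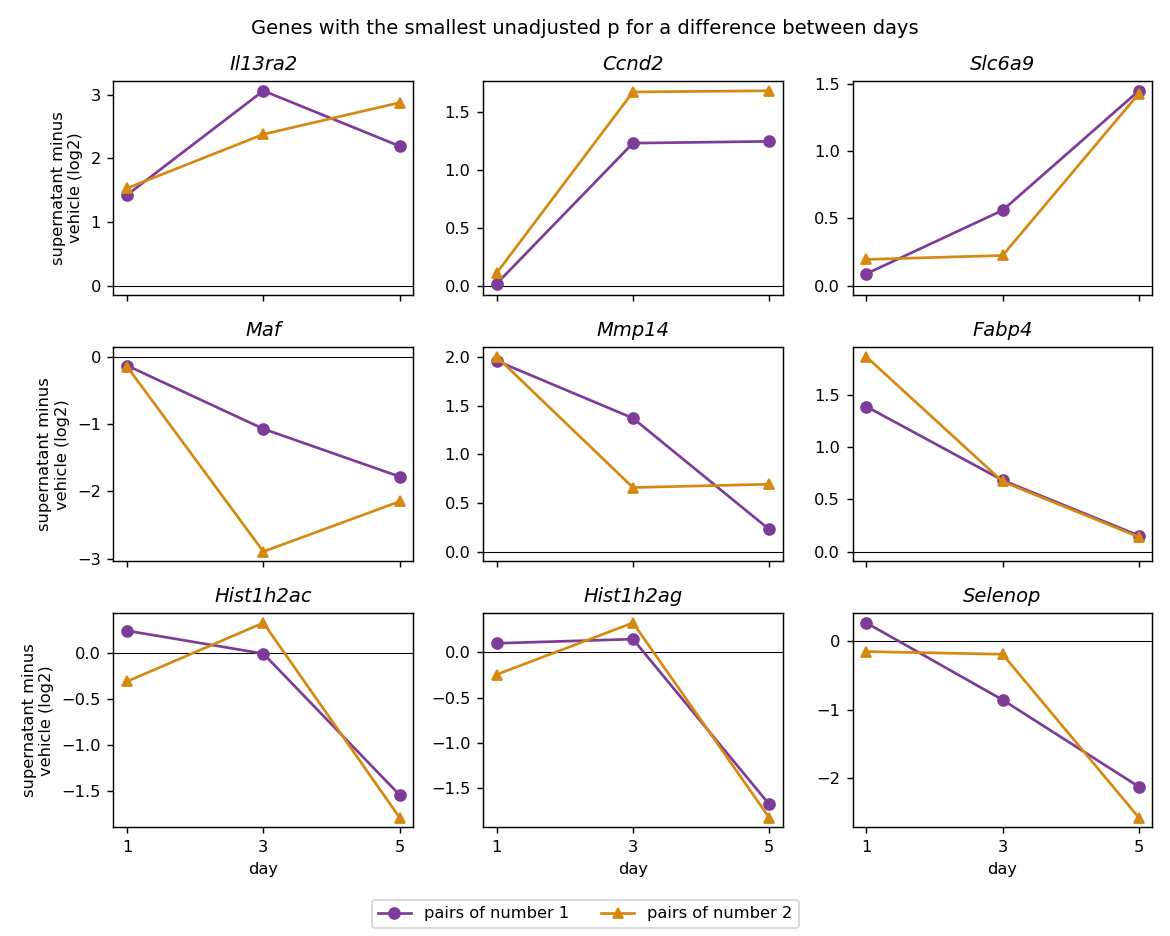
Supernatant minus vehicle (log2(normalized count + 8)) by day for 9 of the 12 genes with the smallest unadjusted p for a difference between days, with 1 line for the pairs of number 1 and 1 for those of number 2. Il13ra2, Ccnd2, Slc6a9, Maf, Mmp14 and Fabp4 keep 1 direction, the histone genes Hist1h2ac and Hist1h2ag are lower in both pairs of day 5, and no gene passed the adjusted test.

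Genes without 1 direction were named by the same test. Selenop, a selenium transport protein, had 0.27 and -0.15, -0.86 and -0.19, and -2.12 and -2.57 (0.000235). Another 4 were the replication-dependent histone genes Hist1h2ag, Hist1h2ac, Hist1h2ao and Hist1h2ap, with differences from -1.86 to -1.55 in the pairs of day 5 and between -0.31 and 0.43 earlier. These copies are nearly identical, so their single counts are uncertain. Of the cell cycle lists, 30 mitosis genes had medians of -0.20 at day 1, 0.28 at day 3 and -0.51 at day 5, and 30 DNA replication genes had -0.32, 0.35 and -0.27, against -0.04, 0.19 and 0.06 over all genes tested. In these lists 0 and 1 genes rose (Ccnd2) and 0 fell, while 1.72% of all genes tested rose and 0.122% fell.

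Just outside the direction rule stood 12 genes that rose with 5 of 6 pairs higher. Those with the smallest p were Ptpn14, Akap2, Osm, Anpep, Cd207 and Slfn5. Ptpn14, a phosphatase, and Cd207, the lectin langerin, were at 0.0 in both libraries of the low-mRNA pair of day 3. Slfn5, an interferon-inducible gene, was lower by 0.08 in that pair, Osm and the peptidase gene Anpep were each lower by 0.04 in number 1 of day 3, and Akap2 did not differ beyond rounding in number 1 of day 5. Akap2 overlaps Pakap in the annotation, so its reads cannot be told apart from that gene's. Just inside the rule, among the genes named, Ccnd2 was higher by 0.02 and Gpnmb by 0.07 in their weakest pairs.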

How the data were processed

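RNA sequencing of RAW264.7 cells gave 12 libraries (TruSeq kit, total RNA, per the labels' protocols). Per the submitters' processing notes, the authors' tools included DESeq2, TopHat2 and SAMtools and their build was mm9. No label or header names tool versions or how reads were counted. The deposited table holds log2 values: the lowest is 3, and the values show that 8 was added to a normalized count before the log. Removing that offset gave whole reads for 100% of positive values in each library, within 0.02 reads, and all libraries were scaled to 1 total. Scaling to a common total means that a change in a few abundant RNAs shifts all other genes. Of its 24757 rows, 993 repeated an Ensembl identifier and were dropped, which left 23764. The reference named 23315 of these and the file a further 99, and 62 symbols stand on 2 identifiers. Of the identifier columns only the Ensembl one lined up with the values. Whether counting used strand is not stated, so overlapping and antisense genes cannot be told apart.

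The filter kept 14715 genes whose normalized counts averaged 10 or more in 1 or more of the 6 groups. Among the 9049 genes under this filter, 51 were higher and 26 lower in all 6 pairs. The 8 libraries other than the low-mRNA ones had more than 60% of their reads on protein-coding genes of the nucleus. limma (3.58.1, R 4.3.3, trended prior) was fitted to the deposited log2 values of 12 libraries with the 6 pairs as a block (replicate block) and 1 treatment term (5 residual degrees of freedom), with Benjamini-Hochberg adjustment over 14715 genes. The block was set by day and replicate number. The labels give these numbers but no matching of a supernatant library to a vehicle library. The deviations of same-numbered libraries correlated at 0.120, 0.935 and 0.923 at days 1, 3 and 5. At days 3 and 5 number 2 was low-mRNA in both arms, so matched cultures and this split cannot be told apart. Without the replicate block 3 genes rose and 0 fell. A second fit had 1 treatment term per day and an F test over 2 contrasts. Depth was 8071160 to 16781080 recovered reads, and the spread between replicates exceeded sampling noise, with a chi-square per degree of freedom of 3.94 and 4.93 at day 1 and 495 to 708 later. Both fits were run on simulated counts in which the changed genes had the same treatment effect at every day. No day difference was simulated, so the day test was checked for false calls only. The simulated spread was fixed in advance and not taken from these libraries.

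The members and the 36 gene lists were chosen with earlier results of these data known. Named genes were the 12 higher and 12 lower with 1 direction, a group mean of at least 50 and the largest weakest pair, up to 4 members with the smallest p of each list, 8 osteoclast genes, the 6 with and 6 without 1 direction with the smallest day p, and the 6 with 5 of 6 pairs and the smallest p. The genes that fell, and Spp1, Isg15, Tnf, Ddit3, Gpnmb and Sod2, were added after their values were seen. Some genes that this rule names are not reported here. Promoter sequences came from RefSeq (GRCm38.p6), matched by symbol for 180 of 251 symbols that rose. As the authors' build is mm9, no other coordinates are given. Alternatives were no replicate block, each pair left out, no low-mRNA libraries, no filter, offsets of 1 and 0.5, quantile normalization, centred pairs, limma-voom on recovered reads and library weights, and, added after seeing the data, the fits without day 1 and without day 5 and the size by day under each setting. Tables were made with pandas 2.3.3 and numpy 2.4.6 under Python 3.11.15, and figures with matplotlib 3.10.9.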

Additional observations from a re-analysis of the deposited data

Results flagged for a closer look

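In 3 of the genes named above, both pairs of 1 day were higher with supernatant while both pairs of another day were lower, and the difference between the days named was not tested by itself. The limma F test over all days gave adjusted p-values of 0.311 for Hist1h2ag and 0.117 for Hist1h2ap and Hist1h2ao. All 3 were replication-dependent histone genes. Hist1h2ag stood at 0.24 at day 3 and -1.75 at day 5, a gap of 1.99. The day 3 difference of Hist1h2ap was 0.26, those of day 1 and day 5 were -0.18 and -1.84, and the gaps were 0.43 and 2.10. Hist1h2ao had gaps of 0.43 and 2.09. Its levels at day 5 were 327.6 and 360.3 with supernatant, against 1200.8 and 1271.6 with vehicle. These histone genes are near-identical copies and do not give independent values.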

How the results depend on the processing

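Without the replicate block that pairs the libraries 3 genes rose and 0 fell. With 1 pair left out in turn 116 to 254 genes rose and 4 to 55 fell, 1213 to 1661 and 371 to 1008 had 1 direction, 0 to 3 passed the day test, and the median size at day 1 was 0.215 to 0.241, against 0.252 with all pairs. The pair whose omission left 116 higher genes was number 2 of day 5, the one that gave 55 lower genes was number 2 of day 3, and leaving out any 1 pair moved the 18 lower genes by over 1.5 times. Without the 4 low-mRNA libraries 264 genes rose and 141 fell, 1455 were higher and 2825 lower in all pairs, and the median size was 0.194 at day 1 and 0.151 at day 3, against 0.396 at day 3 with all pairs. Without day 1, 9 fell, and 2018 and 615 had 1 direction. Without day 5, 46 rose and 2 fell, 1952 and 659 had 1 direction, and the size at day 1 was 0.218. With no filter 68 rose and 2 fell. An offset of 1 gave 10 lower genes and a size of 0.278 at day 1, and one of 0.5 gave 142 and 8 genes and 0.280. Quantile normalization gave 68 lower genes, 753 with 1 direction lower and a size of 0.218, and centring gave 380 and 89, 646 and 0.220. limma-voom called 41 lower and 2 for the day test, and library weights called 950 and 588, and 29 for the day test. The cause was not tested. The day test was not run without the low-mRNA libraries or without a day.

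The 79 named genes that passed kept their direction in every setting run. The call was kept by 3 of them without the block, 26 without a filter, 36 to 68 with 1 pair left out, 25 without day 5, 47 without day 1 and 50 to 78 in the other settings. Precision is limited by the 2 libraries per arm and day and by low counts in the low-mRNA libraries.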

Other observations

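Lipid and lysosomal genes gave single calls. Over all genes tested 1.72% rose, 0.122% fell and 7.27% were higher in all 6 pairs. Of 27 lysosomal genes 1 rose, the cathepsin gene Ctsl, by 1.00 (SE 0.15, limma adjusted p = 0.00503), with 12204.2 and 11608.3 normalized counts at day 1 in supernatant cells, against 7872.1 and 7002.6 in vehicle cells. In that list 10 members were higher in all 6 pairs, and without the low-mRNA libraries 3 rose and 2 fell. Of 14 LXR target and lipid efflux genes 1 rose, the lipid droplet gene Plin2, by 0.89 (SE 0.15, adjusted p = 0.00816), and of 27 sterol and fatty acid genes 1 rose, the desaturase gene Scd1, by 0.51 (SE 0.11, adjusted p = 0.0312). Of 17 iron and heme genes Fth1 alone rose. Hmox1, the heme-degrading enzyme, had differences of 0.07 and 0.01 at day 1, 0.55 and 1.61 at day 3 and 0.84 and 1.23 at day 5 (shared 0.72, adjusted p = 0.0794). In the list of 31 glycolysis and hypoxia genes 0 passed, with medians of -0.20 at day 1, 0.59 at day 3 and 0.63 at day 5, and a shared median of 0.36, against 0.05 without the low-mRNA libraries. Vegfa, the vascular growth factor, had 0.10 and 0.27, 0.65 and 2.11, and 1.5 and 2.91 (shared 1.26, adjusted p = 0.0626).

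The counts in further lists stand beside 1.72% of all genes tested that rose and 0.122% that fell. Among 21 macrophage identity genes 4 rose and 0 fell: Cd14, the Fc receptor genes Fcgr1 and Fcgr2b and Cybb, a subunit of the phagocyte oxidase. Without the low-mRNA libraries 1 rose and 1 fell. Of 15 BCL2 family genes the survival gene Bcl2l1 rose, by 0.70 (SE 0.14, adjusted p = 0.0256), and without the low-mRNA libraries 2 of the list rose and 2 fell. Of 20 p53 targets Plk2 rose and Sesn1 and Trp53inp1 fell, and without the low-mRNA libraries 1 rose and 6 fell. In the list of 13 genes around Txnip, Mxd4 fell and 12 did not pass, whereas 3 fell without the low-mRNA libraries. Txnip itself, which binds thioredoxin, had differences of -1.32 and -1.22 at day 1, -0.66 and 0.55 at day 3 and -0.84 and -1.74 at day 5 (shared -0.87, adjusted p = 0.075). Without the low-mRNA libraries Txnip fell by 1.01 (adjusted p = 0.00653) and the alpha-arrestin gene Arrdc3 by 0.81 (adjusted p = 0.0391). No member passed among 26 ribosomal protein genes (median 0.08), 25 nuclear genes of oxidative phosphorylation (-0.02), 19 heat shock genes (0.10), 15 mitochondrially encoded genes (-0.18), 12 histone genes (-0.23) and 4 nuclear noncoding RNAs (0.04). Of the tested markers of other cell types, 1 for fibroblasts, 1 for T and natural killer cells, 2 for B cells and 2 for dendritic cells and neutrophils, Ighm alone passed.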
